A study of Macaca mulatta with 6 samples.

Results

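The miR-183, miR-96 and miR-182 cluster was followed in the plasma of adult rhesus monkeys before and after ischemic stroke. All entries of the small RNA table whose name, without species prefix, arm and isomiR suffix, was miR-182, miR-183 or miR-96 were taken, which gave 4 of 2046 entries. These were mml-miR-96_R-1, mml-miR-182_R+2, mml-miR-183-5p_L-1R-1 and mml-miR-183-3p_L-1R-2. The 3 adult male animals served as their own controls. The group "before ischemia" held 3 libraries of baseline plasma, and the group "after ischemia" held 3 libraries of plasma drawn hours after a clot had been flushed through a micro-catheter into the M1 segment of the right middle cerebral artery (MCAO). Only monkeys whose artery was still occluded on angiography had been kept, and all animals shared the anesthesia and the catheter procedure, so the groups differ in time and surgery as well as in ischemia. No sham-operated animals were analysed here.

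The 3 genes of this cluster are transcribed together in mammals as a single primary transcript, from which each hairpin gives a dominant 5p miRNA and a rarer 3p partner. The cluster is best known from sensory cells, such as hair cells of the inner ear and photoreceptors, and base changes in the seed of miR-96 cause hearing loss in humans and mice. Its members are also made in many epithelia, and miR-182 is induced in activated T lymphocytes of mice. RefSeq's rhesus annotation (T2T-MMU8v2.0) places the miR-96 gene between those of miR-182 and miR-183, with no other annotated gene among them.

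The 4 deposited mature sequences are shown because 3 of them have seeds that differ at few bases. They are written 5′ to 3′ as in the table, with T for U, and capitals mark the seed, that is, bases 2 to 8 of the miRBase sequence.
mml-miR-96_R-1: tTTGGCACtagcacatttttg
mml-miR-182_R+2: tTTGGCAAtggtagaactcacact
mml-miR-183-5p_L-1R-1: ATGGCACtggtagaattcact
mml-miR-183-3p_L-1R-2: TGAATTAccgaagggccata

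L and R in a name count the bases by which a sequence is longer (+) or shorter (-) than its miRBase entry on the 5′ side and the 3′ side. Both miR-183 entries had lost 1 base at the 5′ end (L-1), so their seed starts at the first base, and bases 2 to 8 of the deposited 5p sequence read TGGCACT. Neither miR-96 nor miR-182 was changed at the 5′ end. The seed of miR-96 shared 6 of 7 bases with that of miR-182 and 6 of 7 with that of miR-183-5p, whereas miR-182 and miR-183-5p shared 5. Over the full length, the longest run of miR-96 and miR-182 was tttggca at their start, and that of miR-96 and miR-183-5p was tggcact (7 bases each). For miR-182 and miR-183-5p it was tggtagaa in their middle (8 bases). The sequences had 20 to 24 nt.

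The values are the authors' normalized counts, in which the reads of a library were multiplied by 1 factor. That factor, the value of 1 read, was recovered from the low values of the table. It was 1.28 to 1.86 for the libraries after ischemia and 0.565 to 0.779 for those before. All 24 values of the cluster came to whole reads within 0.01 reads, and the reads behind each value are given with it. Total reads, summed over all entries, ranged from 6036831 to 9737589 after ischemia and from 10745499 to 15548693 before. In these totals, a sequence listed under several names was counted each time. A count of 0 allows up to 3 reads, which is 1.70 to 5.58 normalized counts depending on the library. Counting intervals of values above 0 are exact Poisson intervals at 95%, and limits and intervals cover counting error only. The library of monkey 1 after ischemia was the highest for every member, so the level and the fold change of each tested member are also given without it. miRNAs of red blood cells, platelets, lymphocytes and liver were all detected, as plasma holds RNA from many sources, and for such a mixture the number of contributing cells and the amount each released cannot be told apart.

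mml-miR-96_R-1 rose after ischemia and was the one member past the threshold, in a call that held under 9 of 18 other settings. Whether its change differed from that of the other members was not tested. It had 1118, 169 and 130 normalized counts in monkeys 1, 2 and 3 after ischemia (811, 132 and 70 reads) and 23.4, 8.07 and 30.5 before (30, 12 and 54 reads). Every library after ischemia lay above every library before, and the lowest one after, at 130 with a counting interval of 101 to 164, was clear of the highest one before, at 30.5 with an interval of 22.9 to 39.8. The means were 473 ± 559 and 20.7 ± 11.5 (SD, n = 3 each). Without monkey 1 the mean after ischemia was 150 ± 27.6 (SD, n = 2). Within monkeys 1, 2 and 3 the difference on the log2 scale was 5.52, 4.23 and 2.06. In the fit of limma to log2(normalized count + 1) over the 807 entries with 10 normalized counts in at least 3 libraries, the log2 fold change was 3.94 (standard error 0.886, adjusted p = 0.0393, Benjamini-Hochberg). This scale understates the change of rare miRNAs. Against the other miRNAs of its library, miR-96 stood at rank 592, 828 and 581 before ischemia and at 210, 346 and 385 afterwards, so it remained a minor miRNA of plasma throughout.

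**Figure D1:**
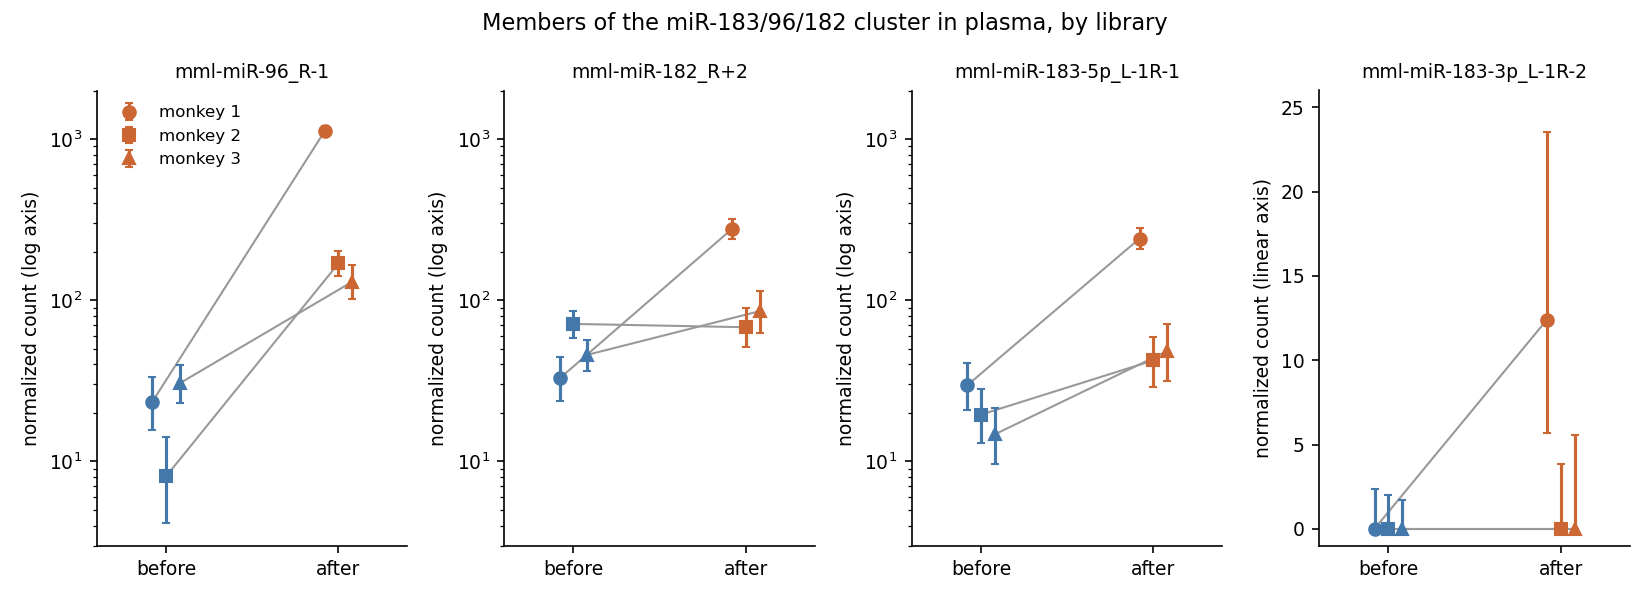
Normalized counts of the 4 cluster entries before (blue) and after (orange) ischemia, on a log axis for the first 3 panels and a linear axis for miR-183-3p. Grey lines join the libraries of a monkey and bars are exact 95% Poisson intervals of the reads or, for a value of 0, reach up to 3 reads. miR-96 separates the groups by a wide gap, miR-183-5p by a narrow one, and miR-182 does not separate them.

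mml-miR-183-5p_L-1R-1, the dominant strand of its hairpin, had 241, 42.3 and 48.4 normalized counts after ischemia (175, 33 and 26 reads) and 29.6, 19.5 and 14.7 before (38, 29 and 26 reads) in monkeys 1, 2 and 3. The groups did not overlap, but only narrowly so. The lowest value after ischemia, 42.3 with a counting interval of 29.1 to 59.4, came close to the highest before, 29.6 with an interval of 20.9 to 40.6. The means were 111 ± 113 and 21.3 ± 7.61 (SD, n = 3 each), and the mean after ischemia without monkey 1 was 45.3 ± 4.27 (SD, n = 2). Its log2 fold change of 1.91 (standard error 0.775) did not pass (limma, adjusted p = 0.189, unadjusted p = 0.0377), although the value was higher in 3 of 3 monkeys.

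mml-miR-182_R+2 had 277, 68.0 and 85.5 normalized counts after ischemia (201, 53 and 46 reads) and 32.7, 71.3 and 45.8 before (42, 106 and 81 reads). It was thus the most abundant member before ischemia, at a mean of 49.9 ± 19.6, and reached 144 ± 116 afterwards (SD, n = 3 each), or 76.8 ± 12.4 without monkey 1 (SD, n = 2). Here the groups overlapped, since monkey 2 went from 71.3 to 68.0. The log2 fold change was 1.29 (standard error 0.654) and did not pass (limma, adjusted p = 0.294, unadjusted p = 0.0824), with 2 of 3 monkeys higher.

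The passenger strand mml-miR-183-3p_L-1R-2 was seen in the library of monkey 1 after ischemia alone, at 12.4 normalized counts or 9 reads, with a counting interval of 5.67 to 23.6 normalized counts. The other 5 libraries listed it at 0. Since it reached 10 normalized counts in 1 library, it was not among the tested entries, and with a single value above 0 no permutation of the libraries could bear on it. In that one library the 5p strand made up 95.1% of 184 reads of miR-183 (exact binomial interval 90.9 to 97.7%). In the others, 26 to 38 reads of the 5p strand were counted, so a 3p share as small as this would give 1 or 2 reads and was not detectable at this depth. No 3p entry of miR-96 or miR-182 was among the members.

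In all, 1 of the 3 tested members was higher after ischemia at the threshold and none was lower, where 1.98% of the 807 tested entries were called higher and 3.47% lower (16 and 28 entries). At an unadjusted p under 0.05 in limma, 2 of the 3 were higher and 0 lower, against 9.79% of all tested entries higher. The share of all tested entries lower at that level was not counted. Groups that did not overlap, with higher values after ischemia, were seen for 2 of the 3 and for 11.5% of all tested entries, and higher values in each monkey for 2 of the 3 and for 22.6%. The median log2 fold change was 1.91 over the 3 members and −0.06 over all 807 entries. A log2 fold change as large as that of miR-96 was found for 1.24% of the entries tested. The exact two-sided permutation test of the single values gave p = 0.1 for miR-96 and for miR-183-5p, the smallest value possible with groups of 3, and p = 0.2 for miR-182.

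**Figure D2:**
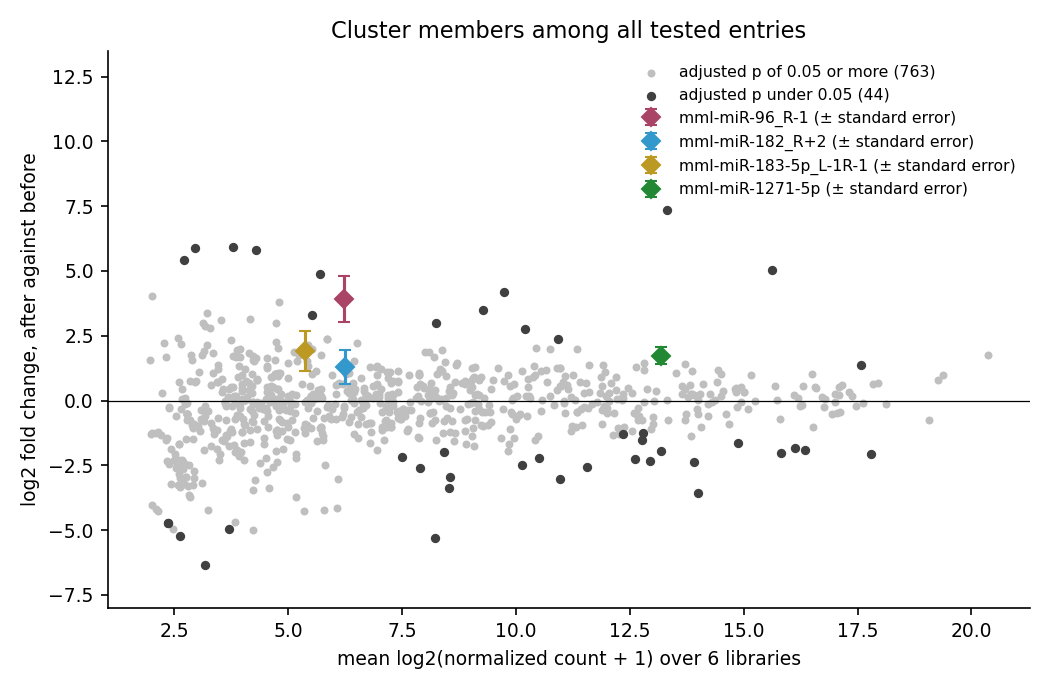
Log2 fold change after against before ischemia, plotted against the mean log2(normalized count + 1), for the 807 tested entries. Black points passed the threshold (44 entries), diamonds with standard errors are the members and mml-miR-1271-5p. miR-96 lies at the upper edge of entries of its level, while miR-182 and miR-183-5p lie among entries that did not pass.

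Summed over the 4 entries, the cluster had 1649, 280 and 264 normalized counts after ischemia in monkeys 1, 2 and 3, and 85.7, 98.8 and 91.0 before. The level before ischemia was nearly the same in all animals, at 91.9 ± 6.61, whereas afterwards it varied widely, at 731 ± 795 (SD, n = 3 each). CPM are relative to the total over all entries of the library. In CPM the summed cluster had 122.8, 24.8 and 23.5 after ischemia and 10.2, 9.62 and 10.4 before. The ratio of the group means was 7.96 in normalized counts and 5.66 in CPM. Without the library of monkey 1 after ischemia, the log2 ratio of the means was 1.56 in place of 2.99, and by miRNA it was 2.86 in place of 4.52 for miR-96, 1.09 in place of 2.43 for miR-183 and 0.62 in place of 1.52 for miR-182. No test was made on these sums.

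The make-up of the cluster differed between the groups too, a comparison within each library that does not depend on the scaling. miR-96 held 67.8%, 60.6% and 49.3% of the reads of the cluster after ischemia in monkeys 1, 2 and 3, and 27.3%, 8.16% and 33.5% before. It was thus the leading member in each library after ischemia and in none before. miR-182 held 16.8%, 24.3% and 32.4% after ischemia and 38.2%, 72.1% and 50.3% before, where it led in each library. In monkey 1 before ischemia this lead was within counting error, at 42 reads against 38 of miR-183-5p. There miR-182 took 52.5% of the reads of both, with an exact 95% binomial interval of 41.0 to 63.8%. The share of miR-183, both strands together, was 16.3 ± 1.76% and 23.5 ± 9.75% (SD, n = 3 each) and overlapped between the groups.

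**Figure D3:**
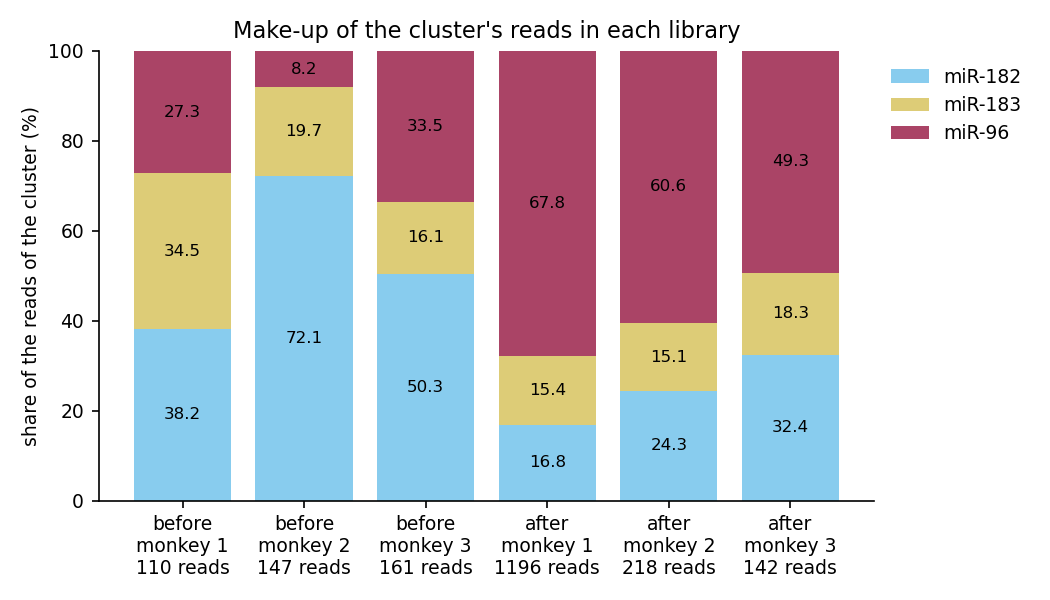
Share of the cluster's reads (%) that came from miR-182, miR-183 (both strands) and miR-96 in each library, with the number of reads under each bar. miR-182 is the largest part of all 3 libraries before ischemia and miR-96 of all 3 after.

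Set against miR-182 alone, miR-96 had 4.03, 2.49 and 1.52 reads for each read of miR-182 after ischemia in monkeys 1, 2 and 3, and 0.714, 0.113 and 0.667 before. The means of the log2 ratio were 1.31 ± 0.70 and −1.40 ± 1.51 (SD, n = 3 each). Of the reads of both miRNAs, miR-96 took 60.3% in monkey 3 after ischemia, the lowest value of that group, with an exact binomial interval of 50.8 to 69.3%. Its highest value before ischemia was 41.7% in monkey 1, with an interval of 30.2 to 53.9%, which overlaps the former at its end. The step was largest in monkey 2, in which miR-96 went from 12 to 132 reads while miR-182 went from 106 to 53. Against miR-183-5p, miR-96 stood at 4.63, 4 and 2.69 reads per read after ischemia and at 0.789, 0.414 and 2.08 before. The groups again did not overlap, and the 2 values nearest to each other, 2.69 and 2.08, were those of monkey 3. The ratio of miR-182 to miR-183-5p, in contrast, was 1.15, 1.61 and 1.77 after ischemia and 1.11, 3.66 and 3.12 before, with overlap between the groups. These ratios are descriptions, with no test.

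Entries with the seed of miR-96 were then listed, since miRNAs of like seed can pair with like sites. Outside the cluster the seed TTGGCAC was found in mml-miR-1271-5p, a miRNA encoded elsewhere in the genome, between the genes ARL10 and NOP16, and in 1 predicted candidate with reads in a single library (PC-5p-97163_6, 6 reads). No entry outside the cluster had the seed of miR-182 or the miRBase seed of either strand of miR-183. The shifted bases 2 to 8 of the deposited miR-183-5p occurred in 1 other candidate (PC-3p-100522_6, 6 reads in 1 library). The sequence of miR-1271-5p is shown to set its seed, in capitals, beside that of miR-96.
mml-miR-1271-5p: cTTGGCACctagcaagcactca

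mml-miR-1271-5p was far more abundant than miR-96, at 14875, 17539 and 18699 normalized counts after ischemia in monkeys 1, 2 and 3 and 7445, 3632 and 4883 before. It rose in each monkey (log2 fold change 1.74, standard error 0.333, limma adjusted p = 0.0224). miR-96 supplied 6.99%, 0.956% and 0.691% of all reads with this seed after ischemia and 0.313%, 0.222% and 0.621% before. In monkey 3 the shares overlapped in their counting error, with exact binomial intervals of 0.539 to 0.873% after and 0.467 to 0.810% before ischemia. Most reads with this seed in plasma were thus those of miR-1271-5p in every library.

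Across the 6 libraries, the log2 values of miR-96 had a Pearson r of 0.91 with miR-183-5p (Spearman's rho 0.77) and of 0.80 with miR-182 (rho 0.54), and miR-182 and miR-183-5p had r = 0.88 (rho 0.71). Of the other 804 tested entries, 2.99% were more like miR-96 than miR-183-5p was, and 9.45% were more like it than miR-182 was. Entries with a sequence already listed left out, the 5 entries most like it were oga-miR-100_R+1 (r = 0.99), bta-miR-378_R+1 (0.98), bta-miR-378_L-1R+1 (0.98), mml-miR-195-5p_R+1 (0.97) and mml-miR-375 (0.95), of which the first 3 carry names of other species and both miR-378 entries are isomiRs of one miRNA. One entry was left out in this way, hsa-miR-378c_R-2_2ss21AG22GC, which has the sequence and the values of bta-miR-378_R+1. miR-100, miR-378 and miR-195 are made in many tissues. These coefficients are descriptions over 6 libraries that share their scaling factors. Without the library of monkey 1 after ischemia, r with miR-96 was 0.90 to 0.97 for these 5 entries, 0.78 for miR-183-5p and 0.39 for miR-182. Without the 2 libraries farthest from the median of miR-96 (that one and monkey 2 before ischemia), r was 0.80 to 0.94, 0.76 and 0.92. mml-miR-375, a miRNA of pancreatic islets and other neuroendocrine cells, had 8697, 2185 and 1185 normalized counts after ischemia and 1012, 467 and 682 before. Its log2 fold change of 2.04 did not pass (standard error 0.687, limma adjusted p = 0.137). None of the other 4 passed either, at log2 fold changes from 1.20 to 2.03 and adjusted p from 0.113 to 0.189 in limma. The groups did not overlap for any of the 5, with higher values after ischemia, as for 11.5% of all tested entries. Since the 5 were picked by likeness to miR-96 over these same libraries, this follows in part from the choice.

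**Figure D4:**
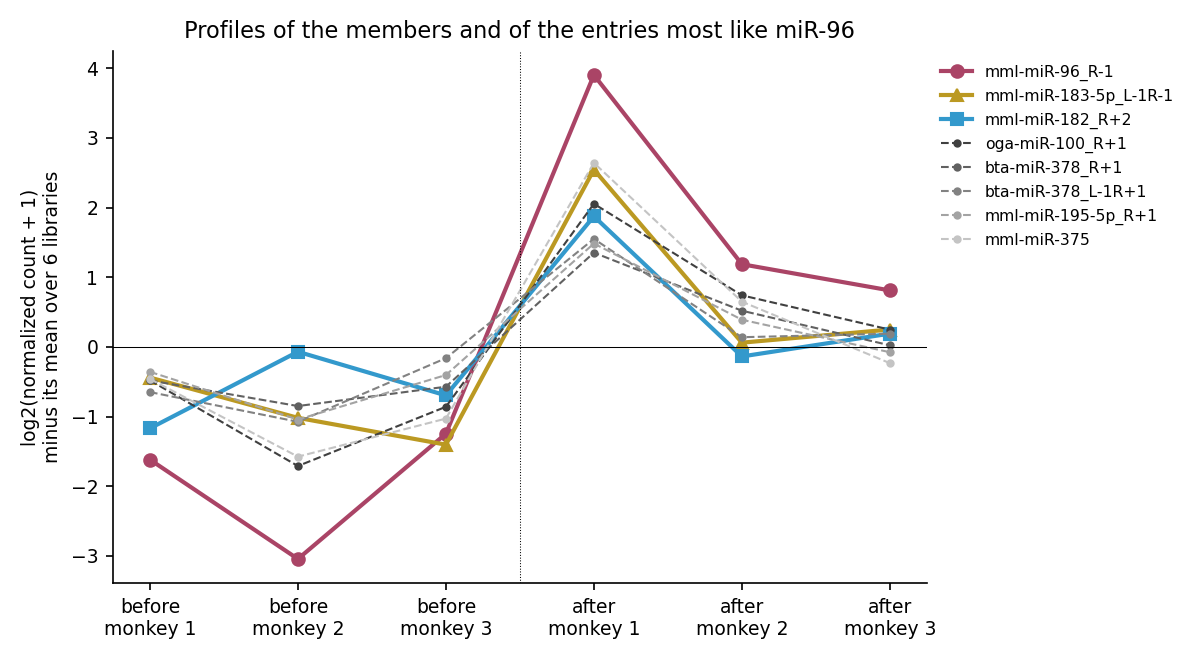
Log2(normalized count + 1) minus its mean over the 6 libraries, for the 3 tested members (solid lines) and the 5 entries most like miR-96 (dashed lines). All peak in monkey 1 after ischemia, which for the dashed lines follows in part from their choice by likeness over these same libraries. miR-182 is the one member that is higher before than after ischemia in monkey 2.

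miRNAs known from the cell types in which the cluster is made were set beside it. The lists here and below were written with earlier results of these data known, so their counts are descriptions and not independent support. For comparison, 1.98% of all 807 tested entries were called higher and 3.47% lower in limma. At an unadjusted p under 0.05, 9.79% of them were higher, and the share lower was not counted. The list of lining epithelium (the miR-200 family, miR-192, miR-194, miR-215, miR-203, miR-205 and miR-375) had 16 tested entries, of which 11 rose and 0 fell in limma (13 and 0 at an unadjusted p under 0.05), with a median log2 fold change of 3.25. Scaled to library totals, 10 rose and 0 fell, where 11 of all 813 entries then tested rose and 46 fell. Its summed level ran from 165461 to 1089816 normalized counts after ischemia and from 10382 to 19962 before, with the highest library in monkey 1 after ischemia, as for the cluster. miR-192 and miR-215 made up 93.7% to 96.1% of this sum after ischemia and 63.6% to 74.8% before. The other 9 miRNAs of the list summed to 24388 ± 17562 after and 4210 ± 1067 before (SD, n = 3 each), or to 10502 and 18533 in the 2 libraries after ischemia other than that of monkey 1. miR-203 and miR-205 of stratified epithelia overlapped between the groups, at 329 ± 183.2 and 184 ± 133 normalized counts after and 311 ± 227 and 305 ± 128 before (SD, n = 3 each). Of 7 tested entries of the list of sensory and neuroendocrine cells (miR-7, miR-9, miR-124, miR-204, miR-211 and miR-375), 0 rose and 0 fell in limma (1 and 1 at an unadjusted p under 0.05), and the median was 0.24, or −0.15 when scaled to library totals. miR-375 is on both lists. The sum over this list of 6 miRNAs was 9832 to 18776 normalized counts after and 6938 to 9947 before ischemia. Its highest library, too, was that of monkey 1 after ischemia. Most of this sum was miR-7, at 9529 ± 2216 after and 7033 ± 962 before, with overlap between the groups. miR-211 had 16.3 ± 10.7 after and 3.98 ± 4.32 before (SD, n = 3 each). miR-204 of retina and miR-9 of neural cells had 101 ± 42.8 and 241 ± 58.1 normalized counts after and 116 ± 49.0 and 525 ± 395 before (SD, n = 3 each), and miR-124 of neurons was listed at 0 in all 3 libraries before ischemia and at 31.7, 3.21 and 0 after.

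Blood cells were covered by 3 more lists, none of which had an entry past the threshold in limma. At an unadjusted p under 0.05 there were 5 higher and 1 lower for red blood cells, 2 and 1 for lymphocytes and 1 and 1 for platelets. Over all tested entries, the share higher at this level was 9.79%. As the share lower was not counted, the lower counts have no such base beside them. Red blood cell miRNAs (miR-486, miR-451, miR-144 and miR-16, 15 tested entries, median log2 fold change 0.86, and 0.47 when scaled to library totals) summed to 1581364 to 4639196 normalized counts after ischemia and 709288 to 1774878 before, with the highest library again that of monkey 1 after ischemia. Lymphocyte miRNAs (12 entries, median 0.23, and −0.14 when scaled to library totals) overlapped between the groups at 117744 to 182446 and 81329 to 169405, as did those of platelets (14 entries, median 0.07, and −0.31 when so scaled) at 632444 to 842485 and 502011 to 930492. miR-122 of liver stood at 244466 in monkey 1 after ischemia and at 113675 in the same monkey before, and between 7342 and 19444 in the other 4 libraries. The part of any of these cell types in the change of miR-96 was not tested.

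The call of miR-96 changed with single libraries. It passed in limma without the library of monkey 2 after ischemia (adjusted p = 0.0476) and not without any other 1 library (0.0508 to 0.0949), while the log2 fold change stayed between 2.97 and 4.51. Without monkey 1 after ischemia it was 2.97, against 1.11 for miR-183-5p and 0.67 for miR-182. With values scaled to library totals, miR-96 narrowly missed the threshold (log2 fold change 3.56, adjusted p = 0.0508). With the replicate number as a block, which compares each monkey with itself, miR-96 passed (adjusted p = 0.0319) and miR-183-5p and miR-182 did not (0.113 and 0.283, limma).

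**Figure D5:**
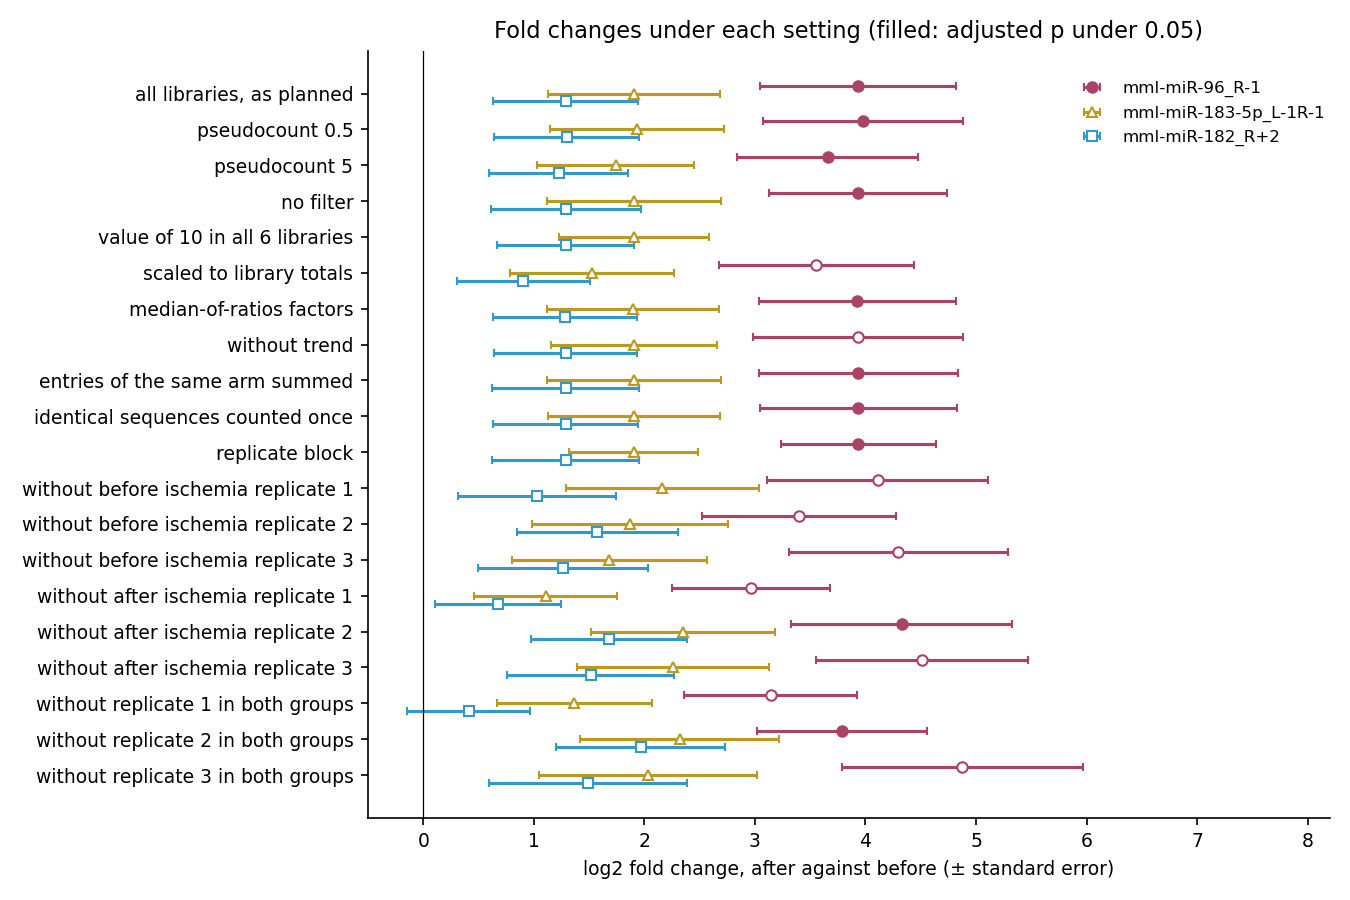
Log2 fold change with standard error of the 3 tested members under each setting, with filled symbols where the adjusted p of limma was under 0.05. Every estimate lies above 0, and those of miR-96, from 2.97 to 4.88, lie above those of the other members in each setting in which it was tested.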

How the data were processed

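Plasma small RNA of 3 rhesus monkeys, before and after ischemia, had been sequenced in 6 libraries (TruSeq small RNA kit). The authors trimmed the reads, kept 18 to 26 nt, discarded those matching other ncRNA of Rfam and mapped the remainder to miRNA precursors with ACGT101-miR, whose version and genome build are not given in the sources used here. The deposited signal values are normalized counts, that is, reads multiplied by 1 factor per library. The factor was recovered as the largest step that made at least 80% of the low values whole, and 84.0% to 86.9% of all values above 0 were then whole reads within 0.01. Because the others were fractions, no count model was used. No column lacked a sample, and 5 empty lines were not analysed here.

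Groups were compared with limma 3.58.1 in R 4.3.3 on log2 values with a pseudocount of 1, with a variance trend and no covariate, over entries with 10 normalized counts in 3 libraries, with Benjamini-Hochberg adjustment at 0.05. The fit was tested on simulated data. Python 3.11.15, SciPy 1.17.1, NumPy 2.4.6, pandas 2.3.3 and Matplotlib 3.10.9 served for all else. Named entries were all members, entries of like seed with a mean of 10 normalized counts in a group, and the 5 tested entries of different sequence with the highest r to the most abundant member. The 2 candidates of like seed below that level were named after their values were seen. Members, lists and tests were chosen with earlier results of these data known. Libraries of one number were taken as 1 monkey, since the same animals were sampled at both times and deviations from the group means correlated at 0.18, 0.36 and 0.29 for like numbers and −0.40 to 0.14 otherwise. Alternatives were pseudocounts of 0.5 and 5, other filters and scalings, no trend, merged entries, a replicate block and left-out libraries.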

Additional observations from a re-analysis of the deposited data

How the results depend on the processing

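No member was called lower under any of the 19 alternatives. The number of members called higher, 1 in all, was 0 with values scaled to library totals, without the variance trend, and under the filter of 10 normalized counts in all 6 libraries, where miR-96 is not tested (8.07 before ischemia in monkey 2). It was 0 to 1 when 1 library was left out, and 0 without both libraries of replicate 1 or of replicate 3 (miR-96 adjusted p = 0.120 and 0.165 in limma). With the replicate block it was 1. Over the whole table, 10 entries were called higher without the trend, and 46 lower when scaled to library totals, which moved the median log2 fold change of tested entries from −0.06 to −0.43 and the split of higher and lower calls from 16 and 28 to 11 and 46. With 1 library left out, 5 to 15 were higher and 14 to 28 lower. Without both libraries of a number it was 5 and 13 (replicate 1), 24 and 25 (replicate 2) and 2 and 1 (replicate 3). The log2 ratio of the summed members ran from 1.56 to 3.39, and the log2 fold changes of miR-182 and miR-183-5p in limma stayed above 0 and short of the threshold in all 19. The few reads of miR-183 in single libraries limit miR-183-3p, and counts of 12 to 54 reads limit miR-96 before ischemia.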
